A study of Homo sapiens with 24 samples.

Results

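The 10 genes described here encode the AP-1 transcription factors FOS, FOSB, FOSL1, FOSL2, JUN, JUNB and JUND, the AP-1 partner ATF3, and the growth factor-responsive regulators EGR1 and MYC. They were chosen by name, and all 10 were found among the 59609 gene symbols of the count table. Gene expression had been measured by 3′ RNA-seq in 24 libraries of a pair of established breast cancer lines labelled ER-negative and wild-type. The first, MDA-MB-231, is mesenchymal and was grown in RPMI-1640, whereas the other, MDA-MB-453, was grown in DMEM. For 5 days the cells of each line were kept in DMSO, in 500 nM abemaciclib, in 5 nM fulvestrant or in the drugs together (the combination), with 3 biological replicates in each of the 8 groups. Abemaciclib inhibits CDK4 and CDK6, and fulvestrant degrades the oestrogen receptor (ER). DMSO is the solvent that every drug-treated culture also received. Each line stands for a single cell population, and the lines and their media cannot be told apart in any comparison between them.

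AP-1 is a family of dimers. JUN proteins pair with themselves or with FOS proteins and bind short DNA elements known as TPA response elements, whereas FOS proteins need a JUN partner. Immediate early genes, FOS, FOSB, JUNB, ATF3 and EGR1 among them, are transcribed within minutes of a growth factor or stress signal. Their mRNAs decay quickly, whereas JUND is expressed more steadily. EGR1 is a zinc finger factor driven by serum response factor (SRF) and its partners downstream of ERK, and MYC pairs with MAX at E-box elements of genes for ribosome biogenesis and growth. FOSL1 (FRA1) is the FOS protein typical of mesenchymal, basal-like breast cancer cells. RNA was collected on day 5 only, so the values below are levels at that time, and their course before it was not measured.

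Promoter sequences were taken from RefSeq (GRCh38.p14), which gave a window from 250 bases before to 50 bases after the start site for 8 of the 10 genes. FOSL1 and MYC had no entry. Stretches of 4 promoters are shown because a search by letters matched an element in them before the start site, with each match in capitals. The JUN element TGACATCA, a variant of the TPA response element, began at base −67 from the JUN start site (chr1:58784082-58784139, minus strand), and the same letters began at base −123 from an ATF3 start site (chr1:212565259-212565316, plus strand). EGR1 carried a pair of CArG boxes, the element bound by SRF, beginning at bases −105 and −83 (chr5:138465349-138465430, plus strand). JUND carried the cyclic AMP response element TGACGTCA, beginning at base −200 (chr19:18281790-18281847, minus strand).
JUN: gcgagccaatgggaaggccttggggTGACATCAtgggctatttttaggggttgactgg
ATF3: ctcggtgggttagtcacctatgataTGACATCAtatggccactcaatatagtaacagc
EGR1: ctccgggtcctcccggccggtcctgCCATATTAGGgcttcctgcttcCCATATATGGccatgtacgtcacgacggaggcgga
JUND: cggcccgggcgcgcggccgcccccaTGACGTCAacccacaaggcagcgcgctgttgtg

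The search covered both strands of all 35116 promoters of the same length in the table. TGACATCA was present in 2.61% of them, TGACGTCA in 1.85%, the CArG box in 1.29% and the consensus TPA response element TGACTCA in 4.95%. The latter was found in the window of FOSL2 only among the 8 genes, beginning at base 4 after the start. The E-box CACGTG, held by 7.26% of promoters, and the E2F elements TTTCCCGC and TTTGGCGC, held by 1.63% and 0.652%, were in none of the 8 windows. These matches describe letters in short windows and say nothing of which factor was bound.

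Library totals ran from 2873558 to 4158762 counts. A count of 0 in all 3 libraries of a group allowed a level of up to 0.255 to 0.30 CPM (counts scaled to a library total of 1000000). The line labels were checked with markers of mesenchymal cells. VIM, CD44, AXL and FN1 were present in every MDA-MB-231 group and were all at 0 in MDA-MB-453. ESR1, which encodes ER, was at 0 counts in 21 of the 24 libraries and reached at most 8. The proliferation marker MKI67 fell with abemaciclib, 2.73-fold in MDA-MB-231 and by a larger factor, 156-fold, in MDA-MB-453. The mitochondrial share of counts rose with abemaciclib from a mean of 8.83% to 12.2% in MDA-MB-231, while MDA-MB-453 went from 15.2% to 23.8%. Fits without the mitochondrial genes changed the call of 1 member in 1 comparison, JUNB in the combination against DMSO in MDA-MB-231.

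**Figure D1:**
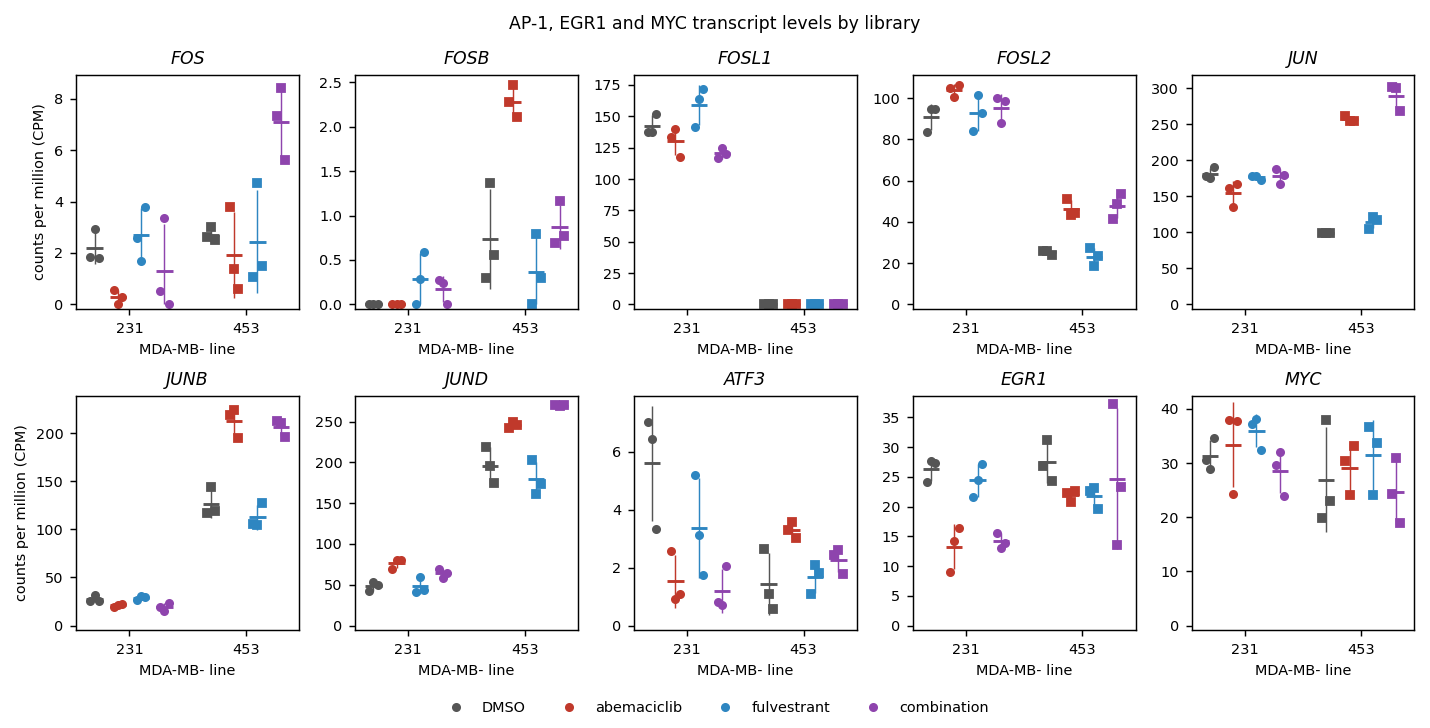
Levels of the 10 genes in every library, in CPM of the library total, for MDA-MB-231 (circles) and MDA-MB-453 (squares). Horizontal bars are means of 3 libraries and vertical lines are 1 SD, cut at 0. FOSL1 was near 0 in all MDA-MB-453 libraries, and the JUN values of the abemaciclib and combination groups of MDA-MB-453 (254 to 301 CPM) lay above all others of that gene.

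Levels of several AP-1 genes differed between the lines before any drug was added. Under DMSO, MDA-MB-231 had more FOSL1, FOSL2, JUN and ATF3, and MDA-MB-453 had more JUNB and JUND, whereas FOS, EGR1 and MYC did not pass the test. In an edgeR quasi-likelihood fit to all 24 libraries, 2 members were higher and 4 lower in MDA-MB-453 among the 9 tested. DESeq2 called 3 higher and 4 lower. Of all genes tested with edgeR, 34.3% were higher and 35.6% lower. The member counts are near these shares and are no result about the members as a set. A gene was called, here and throughout, at a Benjamini-Hochberg adjusted p below 0.05.

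FOSL1 was counted 452, 471 and 502 times in the DMSO libraries of MDA-MB-231 and not once in those of MDA-MB-453. Against the floor of 3 counts over the group, this was at least 507-fold higher in MDA-MB-231. Over all 12 libraries of MDA-MB-453 FOSL1 had 1 count in a fulvestrant library and 1 in a combination library. FOSL2 (FRA2), its close relative, averaged 91.1 ± 6.29 CPM in MDA-MB-231, while MDA-MB-453 had 25.4 ± 1.10 CPM (SD, n = 3), a difference of 3.43-fold (log2 difference −1.78 ± 0.15 SE, edgeR adjusted p = 3.39e-15). JUN was at 181 ± 8.42 CPM against 99.2 ± 0.608 CPM, 1.75-fold lower in MDA-MB-453 (log2 difference −0.80 ± 0.10 SE, edgeR adjusted p = 1.13e-09). ATF3 was low in both lines, with 23, 22 and 11 counts in MDA-MB-231 libraries and 9, 4 and 2 in those of MDA-MB-453 (log2 difference −1.90 ± 0.61 SE, edgeR adjusted p = 0.00522).

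JUNB and JUND ran the other way. JUNB averaged 27.9 ± 3.38 CPM in MDA-MB-231, while MDA-MB-453 had 127 ± 15.3 CPM, a 4.74-fold difference (log2 difference 2.25 ± 0.14 SE, edgeR adjusted p = 1.88e-19). JUND was at 48.2 ± 6.03 CPM and 196 ± 22.2 CPM, a 4.24-fold difference (log2 difference 2.09 ± 0.13 SE, edgeR adjusted p = 5.14e-20). No library of either line overlapped the range of the other for FOSL1, FOSL2, JUN, JUNB or JUND. EGR1, at 26.4 ± 1.99 and 27.5 ± 3.45 CPM, had a log2 difference with a 95% interval from −0.34 to 0.59. MYC, at 31.3 ± 2.91 and 27.0 ± 9.72 CPM, had an interval from −0.59 to 0.29.

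The members called after abemaciclib were not the same in the 2 lines, and the responses of 4 of the 8 tested differed between the lines. FOS, ATF3 and EGR1 were lower and JUND was higher after the drug in MDA-MB-231. In MDA-MB-453 it was followed by higher JUN, JUNB, JUND and FOSL2, and no member was called lower. Of the 9 members tested in MDA-MB-231, 1 was higher and 3 were lower, beside 16.9% of all genes tested higher and 16.9% lower. Of the 8 tested in MDA-MB-453, 4 were higher and 0 lower, beside 16.6% and 19.4% of all genes. The 0 lower members of MDA-MB-453 came from edgeR, and there were also 0 at an unadjusted p below 0.05 and 0 with DESeq2. DESeq2 called 4 higher in MDA-MB-453, and 1 higher and 2 lower in MDA-MB-231. The MDA-MB-231 counts, over 9 genes, are not far from the shares of all genes and are no result about the members as a set. FOSB in both lines and FOSL1 in MDA-MB-453 were left out by the filter on low counts, so the counts above do not cover them. In these bulk samples, a change in the share of cells that express a gene and a change in RNA per cell cannot be told apart.

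Among the JUN genes, which supply the obligate partners of AP-1, JUN changed most in MDA-MB-453. Its levels were 99.4, 98.5 and 99.7 CPM under DMSO and 262, 255 and 254 CPM under abemaciclib. The 3 control libraries were nearly level and every treated library was far above them, a 2.75-fold rise (log2 fold change 1.46 ± 0.10 SE, edgeR adjusted p = 6.33e-17). In MDA-MB-231 JUN was at 178, 175 and 191 CPM under DMSO and at 161, 135 and 167 CPM under abemaciclib. The groups did not overlap, but the difference did not pass the test (log2 fold change −0.23 ± 0.11 SE, 95% interval −0.44 to −0.02, edgeR adjusted p = 0.0886). The responses of the lines differed by 1.69 ± 0.14 SE on the log2 scale (MDA-MB-453 minus MDA-MB-231, edgeR adjusted p = 9.7e-14).

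JUNB, a weaker activator than JUN and often its antagonist, was at 117, 145 and 119 CPM under DMSO and at 220, 224 and 196 CPM under abemaciclib in MDA-MB-453. Every treated library lay above every control library, a 1.78-fold rise (log2 fold change 0.83 ± 0.10 SE, edgeR adjusted p = 7.52e-09). In MDA-MB-231 its levels were 25.9, 31.8 and 26.1 CPM under DMSO and 19.6, 21.9 and 21.9 CPM under abemaciclib. All treated libraries were below the controls, yet the difference did not pass the test (log2 fold change −0.40 ± 0.21 SE, 95% interval −0.82 to 0.02, edgeR adjusted p = 0.133). The difference between the lines was 1.24 ± 0.20 SE (log2, edgeR adjusted p = 4.87e-06). An exon of HOOK2, on the opposite strand, overlaps JUNB by 259 bases in GENCODE 44, and how strand was treated in counting is not given in the sources used here. HOOK2 itself had group means of 42.1 and 54.4 CPM under DMSO and abemaciclib in MDA-MB-453, and of 1.90 and 6.11 CPM in MDA-MB-231, where JUNB had the opposite direction. Under fulvestrant and the combination HOOK2 was at 43.0 and 83.3 CPM in MDA-MB-453, the same direction as JUNB in that comparison, and at 1.35 and 7.04 CPM in MDA-MB-231. How much of the JUNB counts came from HOOK2 transcripts was not tested.

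JUND, a JUN family member linked to quiescence, was the only member called in the same direction in both lines with abemaciclib. In MDA-MB-231 it was at 41.8, 53.7 and 49.1 CPM under DMSO and at 69.8, 79.9 and 80.3 CPM under abemaciclib, a 1.59-fold rise without overlap (log2 fold change 0.67 ± 0.15 SE, edgeR adjusted p = 4.79e-04). MDA-MB-453 held 219, 195 and 174 CPM under DMSO and 242, 249 and 246 CPM under abemaciclib, a 1.33-fold rise (log2 fold change 0.41 ± 0.10 SE, edgeR adjusted p = 5.61e-04). The difference between these responses was −0.25 (log2, 95% interval −0.60 to 0.09, edgeR adjusted p = 0.315), so neither line was shown to respond more.

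**Figure D2:**
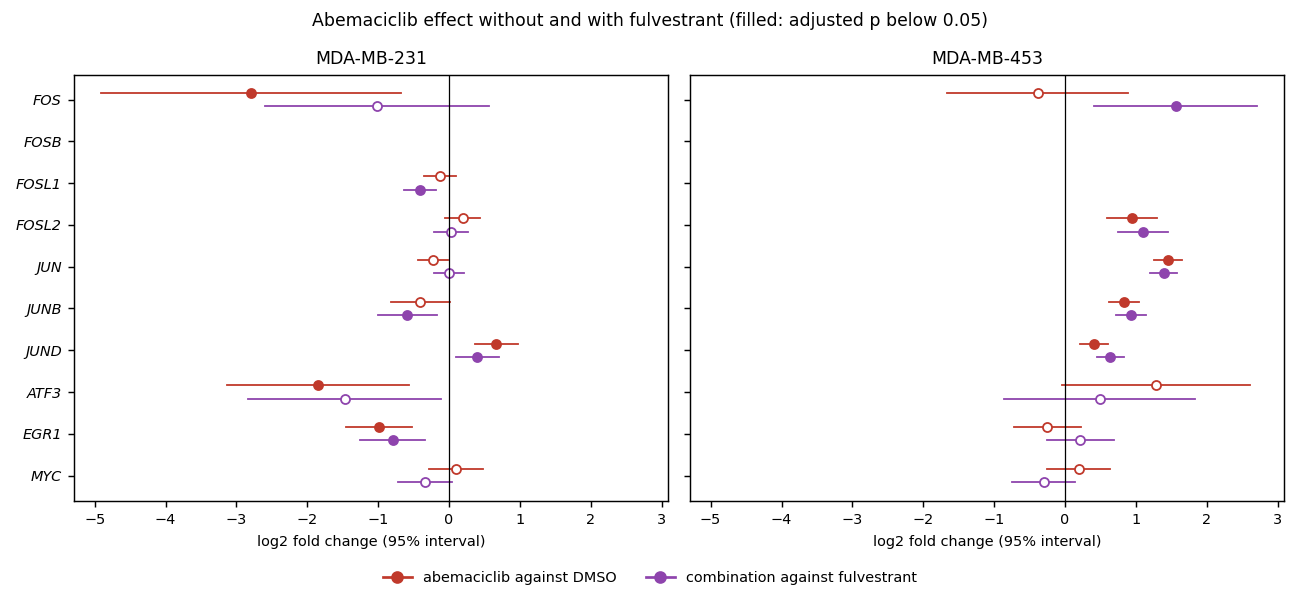
Log2 fold changes with 95% intervals for abemaciclib against DMSO and for the combination against fulvestrant, from edgeR fits to the 12 libraries of each line, with filled points for adjusted p below 0.05. In MDA-MB-453 the JUN, JUNB, JUND and FOSL2 points are filled and to the right of 0 in both comparisons, and in MDA-MB-231 the EGR1 points are filled and to the left; genes left out by the filter on low counts have no point.

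The FOS family split by member. FOSL2 rose 1.93-fold in MDA-MB-453, from 26.0, 26.0 and 24.1 CPM under DMSO to 51.1, 43.2 and 44.2 CPM under abemaciclib (log2 fold change 0.95 ± 0.17 SE, edgeR adjusted p = 1.99e-05). In MDA-MB-231 FOSL2 was at 83.8, 94.6 and 94.8 CPM under DMSO and at 105, 101 and 107 CPM under abemaciclib. These groups did not overlap either, but the difference did not pass the test (log2 fold change 0.19 ± 0.12 SE, 95% interval −0.05 to 0.44, edgeR adjusted p = 0.23). The responses differed between the lines by 0.76 ± 0.20 SE (log2, edgeR adjusted p = 0.00324). The treated FOSL2 level of MDA-MB-453 stayed below the untreated level of MDA-MB-231.

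FOSL1 in MDA-MB-231 was at 138, 138 and 152 CPM under DMSO and at 134, 140 and 118 CPM under abemaciclib, with overlapping groups (log2 fold change −0.13 ± 0.11 SE, 95% interval −0.35 to 0.10, edgeR adjusted p = 0.412). In MDA-MB-453 it was at 0 in all 6 of these libraries. A response there was not detectable at this depth.

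FOS, the founding member, had low counts, from 3 to 72 over the 3 libraries of a group. It was counted 6, 10 and 6 times under DMSO and 2, 0 and 1 times under abemaciclib in MDA-MB-231, a ratio of 0.130 with a 95% interval from 0.0250 to 0.434 that covers counting error only. The edgeR fit called this fall (log2 fold change −2.79 ± 1.05 SE, adjusted p = 0.0344). The call was made in 6 of 12 analyses, this one and its alternatives, with adjusted p values up to 0.138. It was lost with DESeq2 and without any one of the DMSO libraries or abemaciclib replicates 2 and 3. In MDA-MB-453 FOS was counted 9, 11 and 9 times under DMSO and 15, 5 and 2 times under abemaciclib (log2 fold change −0.39, 95% interval −1.66 to 0.89, edgeR adjusted p = 0.68). The difference between the lines was 2.41 ± 1.22 SE and did not pass the test (log2, 95% interval −0.04 to 4.87, edgeR adjusted p = 0.155). The fall of FOS was therefore not shown to be particular to MDA-MB-231. FOSB was at 0 in all 6 of these libraries of MDA-MB-231. It was counted 1, 5 and 2 times under DMSO and 9, 9 and 7 times under abemaciclib in MDA-MB-453, a ratio of 3.05 with a 95% counting interval from 1.34 to 7.83 and no test across genes.

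ATF3, a stress-induced bZIP factor that dimerises with JUN proteins, was counted 23, 22 and 11 times under DMSO and 9, 3 and 4 times under abemaciclib in MDA-MB-231. It fell 3.60-fold (log2 fold change −1.85 ± 0.64 SE, edgeR adjusted p = 0.0218). The call was made in 9 of 13 analyses and lost without DMSO replicate 1 or 2 or abemaciclib replicate 2 or 3, with adjusted p values up to 0.0939. In MDA-MB-453 ATF3 was counted 9, 4 and 2 times under DMSO and 13, 13 and 10 times under abemaciclib. All treated counts were higher than the controls, without passing the test (log2 fold change 1.28 ± 0.66 SE, 95% interval −0.04 to 2.61, edgeR adjusted p = 0.128). The responses of the lines differed by 3.14 ± 0.87 SE (log2, edgeR adjusted p = 0.00584). Of the 4 genes with a called difference between the lines, JUN and ATF3 share the letters TGACATCA in their promoter stretches. The windows of JUNB and FOSL2 do not hold them. Whether these letters had a part in the difference between the lines was not tested. Over the 8 members tested for this difference, 4 were called higher in MDA-MB-453 and 0 lower by edgeR (5 and 0 at an unadjusted p below 0.05, 4 and 0 with DESeq2), beside 8.67% of all genes tested higher and 14.5% lower. The median log2 difference of the members was 1.00, beside −0.06 over all genes.

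EGR1 fell in MDA-MB-231 and did not pass the test in MDA-MB-453. Its levels were 24.1, 27.7 and 27.3 CPM under DMSO and 9.08, 14.3 and 16.4 CPM under abemaciclib. Every treated library was below every control library, a 1.98-fold fall (log2 fold change −0.99 ± 0.23 SE, edgeR adjusted p = 8.68e-04). In MDA-MB-453 EGR1 was at 26.9, 31.2 and 24.4 CPM under DMSO and at 22.3, 20.8 and 22.6 CPM under abemaciclib. All treated libraries were below the controls there as well, yet the difference did not pass the test (log2 fold change −0.25 ± 0.23 SE, 95% interval −0.71 to 0.22, edgeR adjusted p = 0.44). The difference between the lines was 0.75 ± 0.34 SE and did not pass the test (log2, edgeR adjusted p = 0.109), so the fall was not shown to be particular to MDA-MB-231.

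MYC transcript did not pass the test in either line. In MDA-MB-231 it was at 30.5, 28.9 and 34.5 CPM under DMSO and at 38.0, 24.3 and 37.8 CPM under abemaciclib (log2 fold change 0.10, 95% interval −0.28 to 0.48, edgeR adjusted p = 0.733). In MDA-MB-453 it was at 19.9, 38.0 and 23.0 CPM under DMSO and at 30.4, 24.1 and 33.1 CPM under abemaciclib (log2 fold change 0.19, 95% interval −0.25 to 0.63, edgeR adjusted p = 0.534). The groups overlapped in both lines. A library stood apart under abemaciclib in MDA-MB-231 (24.3 CPM) and under DMSO in MDA-MB-453 (38.0 CPM). An exon of the antisense gene CASC11 overlaps MYC by 194 bases, but CASC11 had at most 2 counts in any library.

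The same abemaciclib question was asked a further time in cells that received fulvestrant in both arms, by setting the combination against fulvestrant alone. These libraries are separate from those of the previous comparison. In MDA-MB-453, 5 of the 8 members tested were called higher and 0 lower by edgeR (4 and 0 with DESeq2, and 0 lower at an unadjusted p below 0.05), beside 17.2% and 19.4% of all genes, and the 4 called in the first comparison were among them. In MDA-MB-231, 1 of 9 was called higher and 3 lower, beside 17.6% and 18.5%, and 2 of the 4 called in the first comparison, EGR1 and JUND, were called again. These MDA-MB-231 counts are also no result about the members as a set.

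In MDA-MB-453 JUN was at 105, 121 and 117 CPM under fulvestrant and at 301, 300 and 268 CPM under the combination, a 2.62-fold rise (log2 fold change 1.39 ± 0.10 SE, edgeR adjusted p = 1.74e-16). JUNB was at 106, 105 and 128 CPM and then 213, 211 and 196 CPM, a 1.90-fold rise (log2 fold change 0.93 ± 0.10 SE, edgeR adjusted p = 6.27e-10). FOSL2 was at 27.5, 18.7 and 23.5 CPM and then 41.4, 48.7 and 53.6 CPM, a 2.15-fold rise (log2 fold change 1.10 ± 0.18 SE, edgeR adjusted p = 1.61e-06). For none of these genes did the groups overlap. JUND was at 202, 161 and 174 CPM under fulvestrant and at 270, 269 and 270 CPM under the combination, where the 3 libraries were almost level (1.56-fold, log2 fold change 0.64 ± 0.10 SE, edgeR adjusted p = 5.01e-07).

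FOS was the additional call in MDA-MB-453. It was counted 4, 18 and 5 times under fulvestrant and 21, 29 and 22 times under the combination (log2 fold change 1.56 ± 0.57 SE, edgeR adjusted p = 0.0281). The groups did not overlap, but the call was made in 8 of 13 analyses only, being lost with DESeq2 and without fulvestrant replicate 1 or 3 or combination replicate 1 or 2, with adjusted p values up to 0.146. FOSB was counted 0, 3 and 1 times under fulvestrant and 2, 4 and 3 times under the combination, fewer than the 9, 9 and 7 of abemaciclib alone. The ratio of the combination to abemaciclib alone was 0.384, with a 95% counting interval from 0.158 to 0.851. FOS and FOSB therefore had their highest counts in different drug groups of MDA-MB-453.

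In MDA-MB-231 EGR1 was at 21.7, 24.4 and 27.2 CPM under fulvestrant and at 15.6, 13.0 and 13.9 CPM under the combination, a 1.74-fold fall (log2 fold change −0.80 ± 0.23 SE, edgeR adjusted p = 0.00544). JUND was at 41.3, 59.4 and 43.9 CPM and then 69.3, 58.7 and 63.9 CPM. These groups overlapped, and the rise (log2 fold change 0.40 ± 0.15 SE, edgeR adjusted p = 0.0356) was called in 8 of 13 analyses, not with DESeq2 nor without fulvestrant replicate 1 or 3 or combination replicate 1 or 3. FOSL1 was at 141, 164 and 172 CPM under fulvestrant and at 116, 125 and 120 CPM under the combination, a 1.33-fold fall without overlap (log2 fold change −0.41 ± 0.11 SE, edgeR adjusted p = 0.00304). JUNB was at 26.9, 30.7 and 29.2 CPM and then 18.9, 15.4 and 24.0 CPM (log2 fold change −0.59 ± 0.21 SE, edgeR adjusted p = 0.0223). Its call was made in 8 of 13 analyses and lost without the filter on low counts, and without fulvestrant replicate 2 or 3 or combination replicate 1 or 2.

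ATF3 in MDA-MB-231 had 18, 11 and 6 counts under fulvestrant and 3, 3 and 8 under the combination (log2 fold change −1.47, 95% interval −2.83 to −0.11, edgeR adjusted p = 0.0833). FOS had 9, 6 and 13 counts and then 2, 14 and 0. Combination replicate 2, with 14 counts, stood apart from the other 2 libraries of its group. With that library the log2 fold change was −1.01 (edgeR adjusted p = 0.333), and without it the log2 fold change was −3.19 (edgeR adjusted p = 0.0325).

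The combination was also set against DMSO, which shares its control libraries with the abemaciclib comparison above. In MDA-MB-453 the log2 fold changes were 1.54 for JUN, 0.92 for FOSL2, 0.70 for JUNB and 0.45 for JUND, all called, with 4 members higher and 0 lower of 8 by edgeR beside 17.6% and 20.0% of all genes, and 0 lower with DESeq2 or at an unadjusted p below 0.05. FOS reached a log2 fold change of 1.37 with an edgeR adjusted p of 0.0527. In MDA-MB-231 JUND was higher (log2 fold change 0.40) and ATF3 (−2.20), EGR1 (−0.90) and JUNB (−0.53) were lower, 1 and 3 members of 9 beside 17.0% and 18.3% of all genes. Like the earlier counts of that line, these are no result about the members as a set. The JUNB and JUND calls in MDA-MB-231 were made in 5 and 9 of 13 analyses. That of JUNB was lost with DESeq2, without the filter on low counts, without mitochondrial genes and without any DMSO replicate or combination replicate 1 or 2, and that of JUND without DMSO replicate 1 or 3 or combination replicate 1 or 3.

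With fulvestrant alone no member was called in either line by edgeR or DESeq2, and 1, JUNB in MDA-MB-453, had an unadjusted p below 0.05. Of all genes tested, 0% were called in MDA-MB-231 with edgeR, although 799 had an unadjusted p below 0.05, and DESeq2 called 0. In MDA-MB-453, 1.41% were called, 156 genes, and 270 with DESeq2. The members' log2 fold changes ran from −0.73 for ATF3 to 0.30 for FOS in MDA-MB-231. In MDA-MB-453 they ran from −0.39 for EGR1 to 0.18 for ATF3. For the abundant members the intervals were narrow. JUN had a 95% interval from −0.24 to 0.18 in MDA-MB-231. Its interval ran from −0.05 to 0.35 in MDA-MB-453, although these groups did not overlap (98.5 to 99.7 CPM under DMSO and 105 to 121 CPM under fulvestrant). JUNB in MDA-MB-453 had an interval from −0.45 to −0.02 and an edgeR adjusted p of 0.315, and passed the test without fulvestrant replicate 3 only (edgeR adjusted p = 0.0499). MYC had intervals from −0.18 to 0.59 and from −0.28 to 0.60.

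No member was called either when fulvestrant was added to abemaciclib. The combination against abemaciclib called 0.0265% of all genes in MDA-MB-231, which is 3 genes, and 2.46% in MDA-MB-453, which is 273, and no member by edgeR or DESeq2 in either line, with 1 member, FOS in MDA-MB-453, at an unadjusted p below 0.05. The largest value among the members tested in MDA-MB-453 was that of FOS, from 15, 5 and 2 counts to 21, 29 and 22 (log2 fold change 1.75, 95% interval 0.57 to 2.94, edgeR adjusted p = 0.104). It passed the test without abemaciclib replicate 1, the library with 15 counts (log2 fold change 2.67, edgeR adjusted p = 0.0242). JUN had a log2 fold change of 0.08 in MDA-MB-453 (95% interval −0.10 to 0.27) although all 3 combination libraries were above all 3 abemaciclib libraries in CPM. FOS in MDA-MB-231 had a log2 fold change of 2.08 (95% interval −0.13 to 4.29, edgeR adjusted p = 0.537), and without combination replicate 2 this was −0.10.

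**Figure D3:**
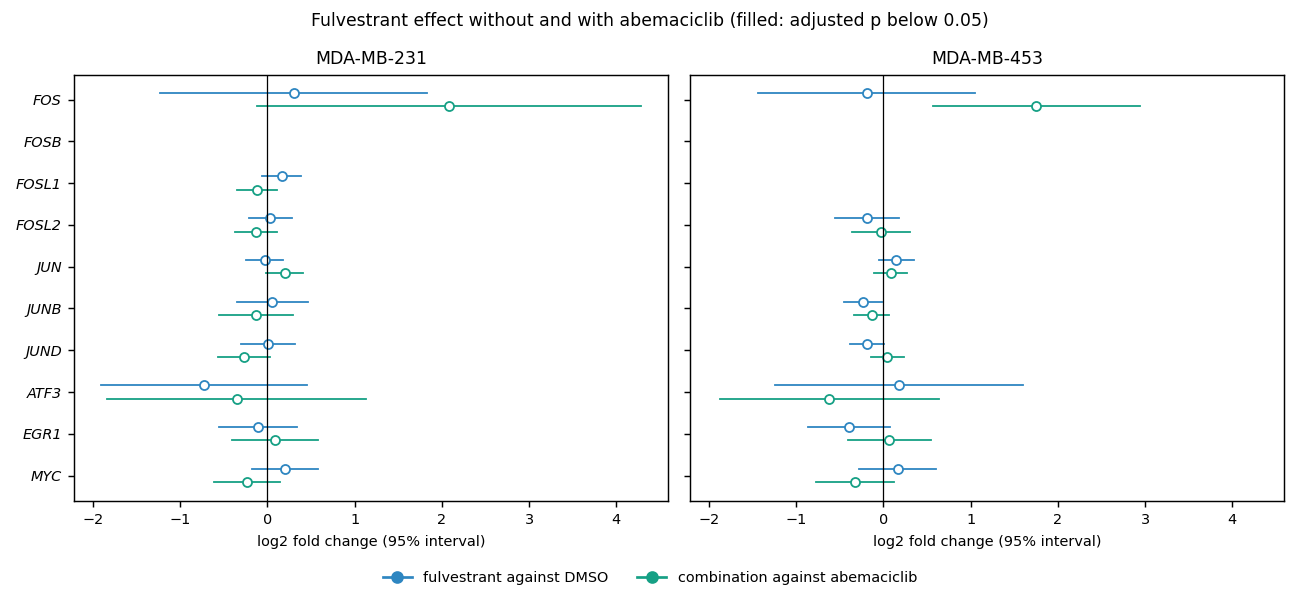
Log2 fold changes with 95% intervals for fulvestrant against DMSO and for the combination against abemaciclib, on the same scale in both lines. All points are open, since no member passed adjusted p below 0.05; the intervals of FOS and ATF3, which had few counts, are the widest, and those of JUN are among the narrowest.

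By mean level, FOSL2 and JUN in MDA-MB-453 both had the combination first and abemaciclib next, and differed in the order of the other groups. FOSL2 then had DMSO before fulvestrant, at 25.4 ± 1.10 and 23.2 ± 4.41 CPM, which overlapped, as did the combination and abemaciclib at 47.9 ± 6.14 and 46.2 ± 4.30 CPM. JUN had the combination at 290 ± 18.6 CPM, abemaciclib at 257 ± 4.32, fulvestrant at 114 ± 8.39 and DMSO at 99.2 ± 0.608, and no neighbours overlapped. JUNB in MDA-MB-453 had abemaciclib at 213 ± 15.4 and the combination at 207 ± 9.39 CPM, which overlapped, well above DMSO at 127 ± 15.3 and fulvestrant at 113 ± 12.9. EGR1 in MDA-MB-231 had DMSO at 26.4 ± 1.99 and fulvestrant at 24.4 ± 2.76 CPM, which overlapped, above the combination at 14.2 ± 1.34 and abemaciclib at 13.3 ± 3.78. EGR1 in the combination group of MDA-MB-453 was uneven, at 37.2, 13.6 and 23.2 CPM. MYC neighbours overlapped throughout in both lines, between 24.8 and 35.9 CPM as group means.

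Genes around these factors were described from lists written by hand with earlier results of these data known. The abemaciclib counts of every list below stand beside 16.9% of all genes tested rising and 16.9% falling in MDA-MB-231, while 16.6% rose and 19.4% fell in MDA-MB-453. Of 26 other immediate early genes listed, 18 were tested in MDA-MB-231 with abemaciclib, 3 rising and 8 falling (median log2 fold change −0.65, beside −5e-04 over all genes), and 20 in MDA-MB-453, 11 rising and 3 falling (median 0.71, beside −0.0019). The matricellular genes CCN2 and CCN1 fell 3.03-fold and 2.03-fold in MDA-MB-231, and the kinase gene SGK1 fell 2.10-fold, whereas the small GTPase gene RHOB rose 2.12-fold. In MDA-MB-453 CCN1 rose 2.55-fold, from 42.1 ± 4.40 to 101 ± 9.42 CPM, the antiproliferative gene BTG2 2.82-fold and the MAPK phosphatase gene DUSP1 2.27-fold, whereas IER5 fell 2.22-fold. The lines did not differ for every gene of the list. RHOB also rose in MDA-MB-453, 1.87-fold, and IER5 also fell in MDA-MB-231, 1.80-fold. Among genes picked out after their values were seen, KLF6 (1.71-fold and 2.19-fold) and KLF10 (1.45-fold and 1.93-fold) rose in both lines, and ID1 (1.67-fold and 1.65-fold) fell in both. For the difference between the lines, 9 of 21 list members were called higher in MDA-MB-453 and 0 lower by edgeR (10 and 0 at an unadjusted p below 0.05). Of all genes tested for that difference, 8.67% were higher and 14.5% lower.

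Of the 11 other bZIP genes that can pair with FOS or JUN proteins, 7 were tested in each line. BATF3, MAFF and MAFK fell 2.06-fold, 1.86-fold and 1.54-fold in MDA-MB-231 and 0 rose by edgeR (median log2 fold change −0.35). In MDA-MB-453, 5 rose and 0 fell (median 0.37, with 1 lower at an unadjusted p below 0.05), with BATF at 2.77-fold, MAFG at 1.50-fold, MAFK at 1.31-fold and JDP2 at 1.29-fold. MAFG, MAFK and JDP2 were called there in 10, 7 and 11 of 13 analyses. With the combination against fulvestrant, 1 of 7 rose and 0 fell in MDA-MB-453 (median 0.18) by edgeR, by DESeq2 and at an unadjusted p below 0.05. Beside 17.2% and 19.4% of all genes, the rises in that line were not repeated as a set. In MDA-MB-231 1 of 7 rose and 2 fell in that comparison (median −0.36). Of the 8 genes for SRF, its ternary complex and MRTF partners and the EGR corepressors NAB1 and NAB2, 8 were tested in MDA-MB-231 and 0 were called by edgeR or DESeq2, with 1 at an unadjusted p below 0.05. In MDA-MB-453 MRTFB rose 1.66-fold and ELK1 fell 1.38-fold of 7 tested, both by edgeR and neither by DESeq2. Among the 5 genes of the JNK pathway, whose kinases phosphorylate JUN, 4 were tested in each line and 0 were called by edgeR or DESeq2 or had an unadjusted p below 0.05 (median −0.21 and 0.10).

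Feedback and output genes of the ERK pathway, which drives FOS and EGR1 transcription, rose and fell in both lines. In MDA-MB-231 3 of 11 tested rose and 2 fell (median 0.20). In MDA-MB-453 4 of 10 rose and 1 fell (median 0.51). The falls were at or near the share over all genes. The ERK phosphatase gene DUSP6 rose 2.99-fold in MDA-MB-231, from 145 ± 8.47 to 431 ± 40.8 CPM, and 3.51-fold in MDA-MB-453, from 52.9 ± 2.56 to 176 ± 23.1 CPM. DUSP4 rose 1.30-fold in MDA-MB-231 and fell 2.11-fold in MDA-MB-453, SPRED1 rose 1.34-fold and 1.64-fold, ETV4 fell 1.94-fold in MDA-MB-231 and DUSP5 rose 1.57-fold in MDA-MB-453. DUSP6 thus rose in both lines, whereas EGR1 fell in MDA-MB-231 and did not pass the test in MDA-MB-453.

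**Figure D4:**
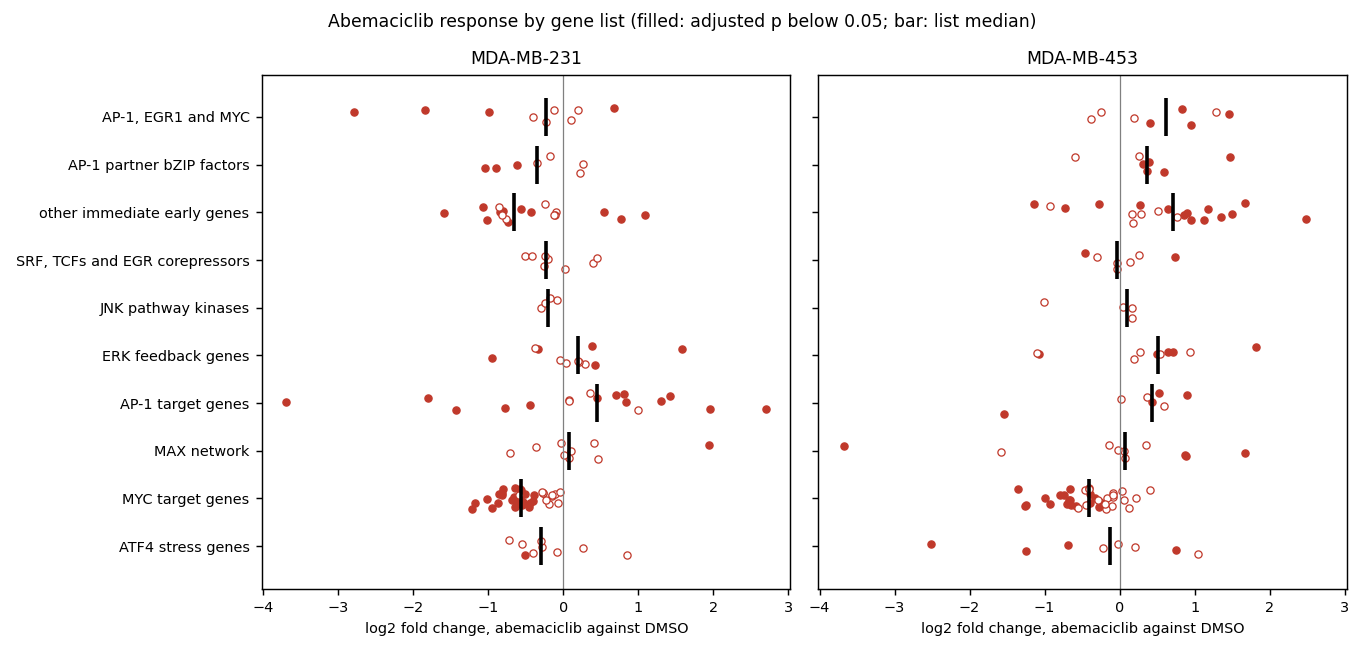
Log2 fold changes for abemaciclib against DMSO of the tested genes of each list, with filled points for adjusted p below 0.05, a black bar for the list median and a grey line at 0; vertical scatter within a list has no meaning. The median of the other immediate early genes lies at −0.65 in the MDA-MB-231 panel and 0.71 in the MDA-MB-453 panel, and that of the MYC target genes lies below 0 in both lines (−0.57 and −0.40).

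Textbook AP-1 target genes did not move as a block. Of 24 listed, 17 were tested in MDA-MB-231, of which 8 rose and 5 fell (median 0.45), and 7 in MDA-MB-453, of which 3 rose and 1 fell (median 0.43). In MDA-MB-231 the cytokine gene IL11 fell 13.0-fold, from 50.1 ± 5.35 to 3.86 ± 1.07 CPM. The growth factor genes EREG and VEGFA rose 2.46-fold and 1.78-fold there. In MDA-MB-453 the metalloproteinase inhibitor gene TIMP1 rose 1.86-fold, the cyclin D1 gene CCND1 1.44-fold and VEGFA 1.35-fold. The VEGFA rise was called in 10 of 13 analyses in MDA-MB-231 and in 9 of 13 in MDA-MB-453.

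Many MYC target genes fell, while MYC transcript did not pass the test. Of 38 listed, 26 of 36 tested fell in MDA-MB-231 and 0 rose (median −0.57), and 19 of 37 fell in MDA-MB-453 and 0 rose (median −0.40) by edgeR. DESeq2 gave 26 and 0 for MDA-MB-231, 17 and 0 for MDA-MB-453, and 1 rose at an unadjusted p below 0.05, in MDA-MB-453. These lists hold many genes for ribosome biogenesis and nucleotide supply, whose levels also follow growth rate, and MKI67 fell in the same libraries; the part of growth rate in these values was not tested. ODC1, the polyamine synthesis enzyme gene, fell in both lines, 2.03-fold in MDA-MB-231, 2.56-fold in MDA-MB-453. PPAN, RRP9 and MRTO4, all for ribosome assembly, fell 2.34-fold, 2.26-fold and 1.94-fold in MDA-MB-231, and FBL, LDHA and EXOSC5 fell 2.37-fold, 2.41-fold and 1.98-fold in MDA-MB-453. With fulvestrant alone, 0 of 36 were called in MDA-MB-231 by edgeR, with 1 lower at an unadjusted p below 0.05. In MDA-MB-453 1 rose and 0 fell of 37, beside 1.41% of all genes tested called in either direction. At an unadjusted p below 0.05, 6 were higher and 2 lower there.

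Within the MAX network, the dimerisation partners and antagonists of MYC, 1 of 9 tested genes rose and 0 fell in MDA-MB-231, and 3 of 10 rose and 1 fell in MDA-MB-453. Such counts are near the share over all genes and are no result about the list. MXD4, a MAX partner that represses E-box genes, rose in both lines, 3.85-fold from 13.8 ± 0.328 to 53.2 ± 4.83 CPM in MDA-MB-231 and 1.84-fold from 82.2 ± 7.17 to 143 ± 12.7 CPM in MDA-MB-453. The ATF4 stress genes had 1 fall and 0 rises of 9 in MDA-MB-231, where ATF4 itself fell 1.42-fold. In MDA-MB-453 1 of 8 rose, SESN2 at 1.68-fold, and 3 fell, with PHGDH at 5.73-fold, ATF5 at 2.37-fold and TRIB3 at 1.61-fold. Of the 46 genes that the naming rule took from these lists, 13 have exons overlapped by a gene on the opposite strand and 5 by a gene on the same strand, so that their counts are uncertain to that extent.

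The genes whose levels followed each member most closely were taken as those with the highest Pearson correlation of log2(CPM + 1) over the 12 libraries of a line, among genes at 20 CPM or more. These values are descriptions, since the libraries share the treatment groups. For JUN in MDA-MB-453 they were UGT2B28 (r = 0.99), SIGLEC15 (0.99) and SCP2 (0.99). JUNB had LAMB2 (0.99), NCSTN (0.99) and CHPF (0.98), FOSL2 had TNKS1BP1 (0.98), C1orf115 (0.98) and H2AC6 (0.98), and JUND had PRKAG1 (0.97), H2AC6 (0.97) and EPB41L4A-AS1 (0.96). In MDA-MB-231 the closest genes were GSR for JUNB (0.96), TNFRSF1A for JUND (0.96), NHP2 for FOSL1 (0.95) and CFL1 for FOSL2 (0.95). The closest gene reached 0.85 for JUN with PSMF1 and 0.88 for MYC with ZNF76 in MDA-MB-231, and 0.86 for EGR1 with AC115223.1 and 0.83 for MYC with GPR160 in MDA-MB-453.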

How the data were processed

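RNA from 24 cultures was sequenced as 3′ QuantSeq FWD libraries, single-end. Per the study's methods, the authors used BBDuk 38.90 for trimming, STAR 2.7.5b for alignment (hg38) and Subread featureCounts 2.0.1 with GENCODE 35 for gene counting; the deposited values are raw gene counts, and the strand, multimapping and duplicate settings are not given in the sources used here. The counts hold 1 line that names no gene, with 0 counts. Groups came from the labels.

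The 10 members and all gene lists were chosen with earlier results of these data known. Genes named from a list were up to 4 called genes per line with the largest abemaciclib change, at 10 CPM or more over both groups; 1 gene that the rule gave and 1 marker list are not reported here. Counts were tested with edgeR 4.0.16 in R 4.3.3 (filterByExpr, TMM scaling, quasi-likelihood test, Benjamini-Hochberg adjustment over all genes tested, 2-sided), within the 12 libraries of each line or over all 24 for comparisons between lines. CPM are counts scaled to a library total of 1000000, without TMM. The fit to MDA-MB-231 covered 11314 genes with a biological coefficient of variation of 13.4%, and for MDA-MB-453 these were 11080 and 12.6%. Standard errors are the log2 fold change divided by the square root of F. The edgeR step was tested on simulated counts with known changes. Intervals of count ratios and limits from 0 counts (3 counts over a group) cover counting error only.

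No 2 replicates were copies of each other (chi-square per degree of freedom from 2.64 to 8.65). The experiment was done once, so p-values measure the spread between replicate cultures. Alternatives were DESeq2 1.42.0, its size factors in edgeR, no filter on low counts, no mitochondrial genes, only the groups compared, a replicate block, TMM-scaled levels and each library left out in turn. Positions and overlaps are from GENCODE 44.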

Additional observations from a re-analysis of the deposited data

Results flagged for a closer look

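The abemaciclib response of 4 members differed between the lines by a test of the difference itself, coded as the log2 response of MDA-MB-453 minus the MDA-MB-231 response in the edgeR fit to 24 libraries. The difference was 1.69 for JUN (adjusted p = 9.7e-14), 1.24 for JUNB (adjusted p = 4.87e-06), 0.76 for FOSL2 (adjusted p = 0.00324) and 3.14 for ATF3 (adjusted p = 0.00584). JUN, JUNB and FOSL2 were called within MDA-MB-453 and not within MDA-MB-231, and ATF3 was called within MDA-MB-231 and not within MDA-MB-453. For ATF3 the counts were between 2 and 23 in these 12 libraries, and the 95% interval of its difference ran from 1.39 to 4.89. All 4 differences were called in each of 19 analyses, this one and its alternatives. The lines also differed in medium and in how far proliferation genes fell, which cannot be told apart from the line.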

How the results depend on the processing

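Libraries of 2873558 to 4158762 counts limit FOS, FOSB, ATF3 and, in MDA-MB-453, FOSL1 most, since their counts were the lowest. Calls of members were lost 4 times with DESeq2, 2 times without the filter on low counts, 1 time without mitochondrial genes and 30 times with a library left out, and the comparisons concerned are named beside the results. Abemaciclib calls of genes that the naming rule took from the lists were lost 33 times with a library left out. They were lost 4 times without the filter, 2 times with DESeq2 and 1 time with only the groups compared. MRTFB and MAFK in MDA-MB-453 were called in 6 and 7 of 13 analyses, and SGK1 in MDA-MB-231 in 11 of 13. JUN, JUNB, JUND and FOSL2 in MDA-MB-453, and EGR1 in MDA-MB-231, were called in every analysis run of abemaciclib or the combination against DMSO and of the combination against fulvestrant. Replicate numbers did not pair the libraries (correlations of same-numbered deviations from −0.196 to 0.059). With the replicate block 3672 genes were called for abemaciclib in MDA-MB-231 and 3882 of those tested for MDA-MB-453. No call of a member was changed by the block.

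For fulvestrant against DMSO, no filter on low counts gave 14 called genes (0 in the analysis reported) in MDA-MB-231. In MDA-MB-453 (156) it gave 269, and DESeq2 gave 270. For the combination against abemaciclib in MDA-MB-231 (3 genes) the count was 5 with DESeq2 size factors, 49 without the filter, 9 without mitochondrial genes, 65 with DESeq2 and 30 with only the groups compared. The cause was not tested.

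With 1 library left out, called members ranged from 2 to 4 for abemaciclib, 2 to 3 for the combination against DMSO and 2 to 4 for the combination against fulvestrant in MDA-MB-231, and from 0 to 1 for fulvestrant and for the combination against abemaciclib in MDA-MB-453. Called genes of all tested ranged from 0 to 205 (fulvestrant) and 0 to 96 (combination against abemaciclib) in MDA-MB-231, and from 5 to 786 and 83 to 518 in MDA-MB-453.

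Members that were not called and whose log2 value changed sign with a library left out had these ranges. In MDA-MB-231 MYC ranged from −0.0091 to 0.28 for abemaciclib. For fulvestrant FOS ranged from −0.024 to 0.57, FOSL2 from −0.035 to 0.11, JUN from −0.052 to 0.0085 and JUND from −0.17 to 0.11. For the combination JUN ranged from −0.067 to 0.027 against DMSO, and against fulvestrant JUN from −0.034 to 0.055 and FOSL2 from −0.046 to 0.097. Against abemaciclib FOS ranged from −0.099 to 2.93, JUNB from −0.32 to 0.023, ATF3 from −0.98 to 0.24 and EGR1 from −0.12 to 0.27. In MDA-MB-453 FOS ranged from −1.11 to 0.17, ATF3 from −0.19 to 0.92 and MYC from −0.017 to 0.49 for fulvestrant. For the combination EGR1 ranged from −0.58 to 0.12 against DMSO, −0.33 to 0.36 against abemaciclib and −0.19 to 0.51 against fulvestrant, MYC from −0.34 to 0.18 against DMSO and FOSL2 from −0.12 to 0.056 against abemaciclib. Between the lines under DMSO EGR1 ranged from −0.015 to 0.19 and MYC from −0.52 to 0.028, and the MYC difference in response from −0.14 to 0.43.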
